A study of Mus musculus with 2 samples.

Results

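Single-cell RNA-seq of mesenchymal stromal cells (MSC) from grafts of embryonic mouse intestine was used to describe 10 genes of the Notch pathway: the receptors Notch1, Notch2 and Notch3, the ligands Jag1 and Jag2, and the target genes Hes1, Hey1, Hey2, Heyl and Nrarp. They were chosen by name, and all 10 of them were found among the 28692 features in the files. The LI graft sample was 1 library of stromal cells from grafted large intestine (colonic lamina propria by its label) and the SI graft sample was 1 library from grafted small intestine. In both, intestine from E12.5 embryos of strain EYFP (C57BL/6), whose cells carry the yellow protein EYFP, was grafted beneath the capsule of the kidney in adult WT mice and taken out after 4 weeks, so the cells described grew outside the intestine, in a host that supplied blood and immune cells. Sorting kept live YFP+ Itgb1+ cells and removed cells with CD45, Ter119, BP3, CD31, EpCAM or L1CAM, that is, immune cells, erythrocytes, the BP3+ cells, endothelium, epithelium and neural or glial cells. The LI library pooled 3 grafts, and the number behind the SI library was not given in the sources used here. Mice of both sexes were used across the experiments of the study. With 1 library per graft type there was no replicate, so no difference below has a p-value, and every interval covers counting error only.

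Notch receptors are single-pass membrane proteins that are activated by ligands on a neighbouring cell. Ligand pulling exposes a site cut by ADAM proteases, the γ-secretase complex then releases the intracellular domain, and this domain joins RBPJ and a Mastermind-like protein (MAML) on DNA to switch on targets such as the transcriptional repressors of the Hes and Hey families and Nrarp, which encodes a feedback inhibitor of the intracellular domain. In blood vessels, NOTCH3 on pericytes and vascular smooth muscle cells (together called mural cells) receives JAG1 from endothelium and from other mural cells, and this signal is known to promote the contractile mural state. In the intestinal epithelium, Notch keeps progenitors from the secretory fates.

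After cells with fewer than 500 genes or over 10% mitochondrial transcripts were removed, 9873 LI cells and 7910 SI cells remained, with medians of 5288 and 5682 UMIs (unique molecular identifiers, 1 per captured transcript). Cells were put into classes by how many markers of each cell type they had, and no Notch gene was among these markers. This gave 7923 LI and 5704 SI fibroblasts (FB), which were split by the genes of 4 MSC subsets into PDGFRAhi FB (523 and 417 cells), Fgfr2 FB (1732 and 1108), CD81 FB (1381 and 1511), adventitial-like FB (1207 and 688) and other FB (3080 and 1980). Other FB met none of these subsets or met more than 1 equally well. There were 517 LI and 1002 SI mural cells, of which 261 and 350 had no UMI of the smooth muscle myosin gene Myh11 and are called pericytes, 162 and 489 had at least 2 and are called vascular muscle-like, and 94 and 163 had exactly 1. Visceral smooth muscle cells (SMC, 288 and 324) and interstitial cells of Cajal (ICC, 340 and 70) completed the 9 stromal classes. Each had at least 50 cells in each library, and the cells with exactly 1 Myh11 UMI were not among these classes. Mesothelial cells were too few for a comparison (30 and 23), and 674 LI and 653 SI cells stayed ungated. These ungated cells included 149 and 213 cells with enough mural markers but more than 5 of the 8 fibroblast markers, and over all ungated cells Notch3 was at 96.1 and 165 CPM. The mural class rested on at least 4 of 9 markers, 76 LI and 168 SI mural cells sat at that minimum, and 424 and 445 cells of any class had 1 marker fewer. The libraries shared 26 cell barcodes of the 11568 and 9631 deposited. Only 8 and 9 cells had an endothelial profile, and the 8 endothelial markers summed to 53.6 and 42.4 CPM in mural cells against 5471 and 3867 CPM in those cells. The 9 mural markers summed to 235 CPM in LI and 729 CPM in SI fibroblasts, beside 8362 and 7445 CPM in mural cells. By class this difference was uneven, at 203 and 1038 CPM in Fgfr2 FB and 251 and 1006 CPM in other FB. It was small in adventitial-like FB (228 and 233 CPM) and in ICC (1023 and 1101 CPM). The part of mural transcripts outside mural cells in the levels below was not tested.

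Levels are given as CPM, counts per 1000000, with the UMIs of a gene set against all UMIs of the pooled cells of a class, and they are compared between classes for 1 gene at a time. Gene positions are those of GENCODE vM21 on GRCm38 (mm10). The promoters of the 2 members with the largest ratio of mural cells to fibroblasts, Notch3 and Nrarp, and of Hey2, are shown because these genes were high in the same cells and because that of Hey2 holds the core motif bound by RBPJ, TGGGAA, in its reverse complement (TTCCCA). The sequences are from RefSeq (GRCm38.p6) and run 5′ to 3′ on the gene's own strand up to the annotated start, with bases inside the GENCODE gene left out. Capitals mark the motif.
Notch3, chr17:32166891-32167140, minus strand: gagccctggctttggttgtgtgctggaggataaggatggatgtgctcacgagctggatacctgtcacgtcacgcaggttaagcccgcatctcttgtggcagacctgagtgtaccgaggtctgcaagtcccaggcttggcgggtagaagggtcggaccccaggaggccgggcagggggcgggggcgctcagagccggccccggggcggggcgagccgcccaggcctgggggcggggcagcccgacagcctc
Nrarp, chr2:25180508-25180757, plus strand: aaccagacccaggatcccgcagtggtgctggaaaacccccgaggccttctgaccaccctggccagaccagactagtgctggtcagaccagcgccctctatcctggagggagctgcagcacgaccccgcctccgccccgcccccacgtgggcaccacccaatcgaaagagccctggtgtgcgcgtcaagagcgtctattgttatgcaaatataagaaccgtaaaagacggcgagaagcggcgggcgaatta
Hey2, chr10:30842802-30843033, minus strand: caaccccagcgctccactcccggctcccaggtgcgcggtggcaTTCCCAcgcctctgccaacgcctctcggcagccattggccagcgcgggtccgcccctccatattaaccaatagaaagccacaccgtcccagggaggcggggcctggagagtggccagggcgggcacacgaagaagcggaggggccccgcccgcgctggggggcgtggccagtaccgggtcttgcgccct
RefSeq promoters were found for 7 of the 10 genes (all but Hes1, Hey1 and Heyl), and TGGGAA or its reverse complement lay in the 250 bases before the start in 1 of them, Hey2, where it began 207 bases before the start. The same window held it in 21.6% of all 32851 promoters of the table. A match is a string of letters and not a measured binding site, and its absence from a window this short says nothing of RBPJ.

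Among the receptors, Notch3 was the gene that set mural cells apart, Notch1 was higher in mural cells than in fibroblasts by less, and Notch2 went the other way. Notch3, the mural receptor, lies at chr17:32120820-32166852 (minus strand, ENSMUSG00000038146). In the LI graft it reached 412 CPM (95% interval 387 to 439) in mural cells and 2.83 CPM (95% interval 2.39 to 3.33) in fibroblasts. In the SI graft the corresponding levels were 472 (455 to 491) and 3.08 (2.55 to 3.70) CPM. On the log2(CPM + 1) scale, used for all ratios here, mural cells were higher by 6.75 (6.55 to 6.95) in the LI and 6.86 (6.65 to 7.07) in the SI graft, that is, 108-fold and 116-fold. When each cell was thinned to 2000 UMIs so that depth was equal, 55.8% (51.3% to 60.2%) of LI and 60.3% (57.1% to 63.4%) of SI mural cells had a Notch3 UMI (unthinned 77.8% and 86.4%). In fibroblasts the thinned share was 0.559% and 0.649%, and in visceral SMC, another contractile class, it was 0.722% and 0.643%. No class free of stromal transcripts was at hand as a background: the immune-gated cells, at 1.43% (0.0362% to 7.70%) and 0% (0% to 5.78%) with medians of 5725 and 6952 UMIs a cell, held the fibroblast markers at sums of 19839.9 and 31448 CPM beside 32243 and 40321 CPM in fibroblasts. Whether the low shares of fibroblasts and visceral SMC are expression or background could not be told apart.

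Notch1, the receptor best known from endothelium and lymphocytes, lies at chr2:26457903-26516663 (minus strand, ENSMUSG00000026923). It was at 101 (88.6 to 115) CPM in LI and 82.7 (75.5 to 90.5) CPM in SI mural cells, and at 11.5 (10.6 to 12.5) and 11.96 (10.9 to 13.1) CPM in fibroblasts. The log2 ratios were 3.03 (2.81 to 3.24) and 2.69 (2.51 to 2.87). Within the fibroblasts Notch1 was higher in PDGFRAhi FB (15.6 and 15.1 CPM in LI and SI) and Fgfr2 FB (13.9 and 17.8) than in CD81 FB (10.0 and 8.11) and adventitial-like FB (7.27 and 8.15). The interval of PDGFRAhi FB over CD81 FB excluded 0 in both grafts, at 0.59 (0.11 to 1.06) and 0.82 (0.30 to 1.32). Notch2, a receptor that many mesenchymal cells use, lies at chr3:98013527-98150361 (plus strand, ENSMUSG00000027878). It was at 25.04 (23.7 to 26.5) and 24.2 (22.7 to 25.8) CPM in LI and SI fibroblasts and at 14.1 (9.74 to 19.9) and 13.8 (10.9 to 17.2) CPM in mural cells, a log2 ratio of -0.78 (-1.28 to -0.31) and -0.77 (-1.09 to -0.46). Between these fibroblast classes it ran opposite to Notch1: CD81 FB (26.5 and 29.8 CPM) and adventitial-like FB (25.6 and 34.4) were above PDGFRAhi FB (14.3 and 13.3), with PDGFRAhi FB over CD81 FB at -0.84 (-1.30 to -0.41) and -1.11 (-1.60 to -0.64). The plot of levels by class shows the mural receptors and this opposite pair.

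**Figure D1:**
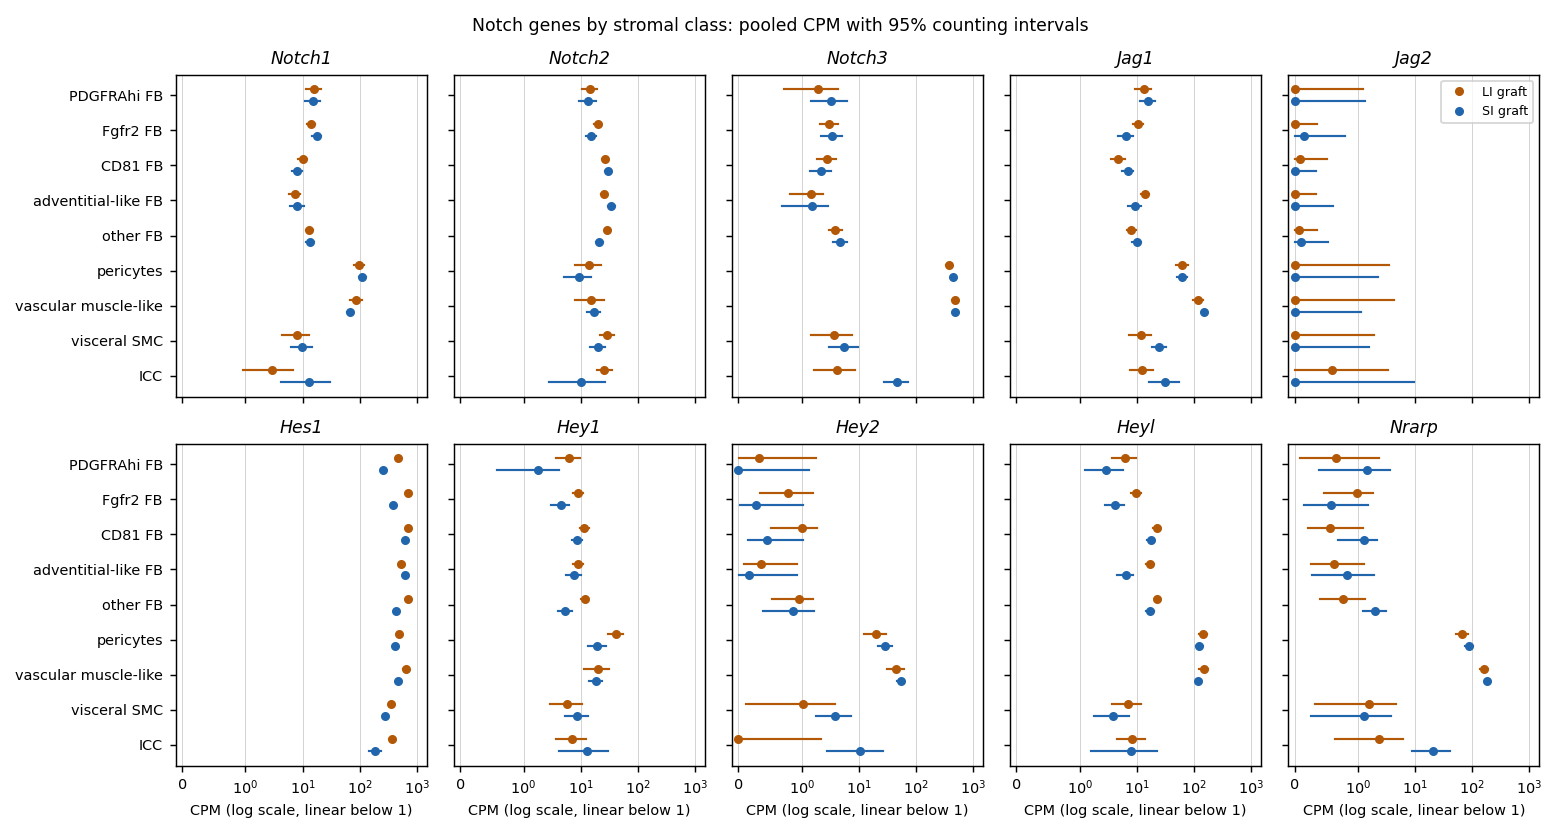
Pooled level (CPM, log axis, linear below 1) of each of the 10 genes in the 9 stromal classes, for the LI graft (orange) and the SI graft (blue); points are the levels and lines the 95% counting intervals. Notch3 and Nrarp stand out in pericytes and vascular muscle-like cells of both grafts, where Notch3 lies between 372 and 485 CPM, whereas Hes1 is high in every class and Jag2 is at or near 0.

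Of the ligands, Jag1 was higher in mural cells and Jag2 was not detectable there at this depth. Jag1, a ligand of NOTCH3 and NOTCH1 in vessel walls, lies at chr2:137081456-137116644 (minus strand, ENSMUSG00000027276). It was at 82.3 (71.1 to 94.8) CPM in LI and 115 (107 to 124) CPM in SI mural cells and at 9.35 (8.53 to 10.2) and 8.61 (7.69 to 9.60) CPM in fibroblasts, log2 ratios of 3.01 (2.77 to 3.24) and 3.596 (3.42 to 3.78). Among the 7 stromal classes other than pericytes and vascular muscle-like cells Jag1 was highest in SI ICC (30.9 CPM, interval 15.98 to 54.0, 12 UMIs) and SI visceral SMC (24.4 CPM, interval 18.5 to 31.6). In LI visceral SMC it was 11.6 CPM (95% interval 7.24 to 17.5). Among fibroblasts it was lowest in LI CD81 FB (4.74 CPM), and PDGFRAhi FB exceeded CD81 FB by 1.29 (0.72 to 1.83) in LI and 1.07 (0.54 to 1.58) in SI. Jag2, a ligand of endothelium and epithelium, lies at chr12:112907819-112929776 (minus strand, ENSMUSG00000002799). It had 0 UMIs in the mural cells of both grafts, which allows up to 1.29 CPM in LI and 0.524 CPM in SI (3 counts), and 2 and 2 UMIs in all LI and SI fibroblasts. In the 8 and 9 endothelial cells it had 4 and 3 UMIs, or 43.9 CPM (95% interval 11.97 to 113) and 38.0 CPM (95% interval 7.84 to 111). In the same few cells the ligand gene Dll4 was at 176 and 292 CPM and the endothelial receptor gene Notch4 at 87.9 and 25.4 CPM.

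Of the 5 target genes, 4 were mural genes and the fifth, Hes1, was high in every class. Nrarp, the feedback inhibitor, at chr2:25180758-25183339 (plus strand, ENSMUSG00000078202), was at 109 (96.3 to 124) CPM in LI and 149 (139 to 159) CPM in SI mural cells and at 0.727 (0.512 to 1.002) and 1.29 (0.949 to 1.71) CPM in fibroblasts. The log2 ratios were 6.00 (5.73 to 6.24) and 6.03 (5.77 to 6.28). Heyl, a Hey family repressor linked to NOTCH3 in vessels, at chr4:123233556-123249875 (plus strand, ENSMUSG00000032744), was at 149.6 (134 to 166) and 118 (109.6 to 128) CPM in mural cells and 17.7 (16.6 to 18.9) and 11.99 (10.9 to 13.2) CPM in fibroblasts, log2 ratios of 3.01 (2.83 to 3.18) and 3.20 (3.03 to 3.37). Hey2, which takes part in arterial identity, at chr10:30832359-30842801 (minus strand, ENSMUSG00000019789), was at 27.0 (20.7 to 34.5) and 44.5 (39.2 to 50.3) CPM in mural cells and under 1 CPM in fibroblasts (0.766 and 0.456), log2 ratios of 3.99 (3.58 to 4.35) and 4.97 (4.67 to 5.20). Hey1, the third of these repressors, at chr3:8663359-8667256 (minus strand, ENSMUSG00000040289), showed the smallest mural excess of the set, at 33.9 (26.8 to 42.2) and 19.2 (15.8 to 23.1) CPM against 10.2 (9.35 to 11.1) and 6.27 (5.50 to 7.13) CPM in fibroblasts, log2 ratios of 1.64 (1.29 to 1.97) and 1.47 (1.16 to 1.78).

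Hes1, a repressor that is induced by Notch and by several other signals, at chr16:30064384-30067796 (plus strand, ENSMUSG00000022528), did not follow this pattern. It was at 547 (518 to 578) CPM in LI and 428 (411 to 445) CPM in SI mural cells and at 646 (639 to 653) and 497 (489.6 to 504) CPM in fibroblasts, so that mural cells were slightly lower, with log2 ratios of -0.24 (-0.32 to -0.16) and -0.22 (-0.28 to -0.15). That sign depended on the cells and scaling: it was 0.0092 in the LI graft with cells named by cluster, and in the SI graft it was 0.17 with female cells alone and 0.0087 with means over single cells. Among these 9 stromal classes, Hes1 was lowest in ICC (361 CPM in LI and 186 in SI), visceral SMC (356 and 283) and PDGFRAhi FB (462 and 259), and the intervals of ICC and visceral SMC overlapped in LI.

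Counted together, 7 of the 10 genes (Notch1, Notch3, Jag1, Hey1, Hey2, Heyl and Nrarp) were at least 2-fold higher in mural cells than in fibroblasts in the LI graft, and the same 7 were in the SI graft. Of all genes that reached 10 CPM on either side, 10.4% in LI and 10.1% in SI passed this mark. No member was 2-fold lower, against 10.6% and 10.6% of all genes. Jag2 did not reach 10 CPM, and over the 9 members that did the median log2 ratio was 3.01 in LI and 3.20 in SI, with 0.13 and 0.12 over all genes, so that each ratio stands slightly higher on this scale than it would against the typical gene. The members include genes known for their role in mural cells, so the count describes them and is no independent evidence.

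**Figure D2:**
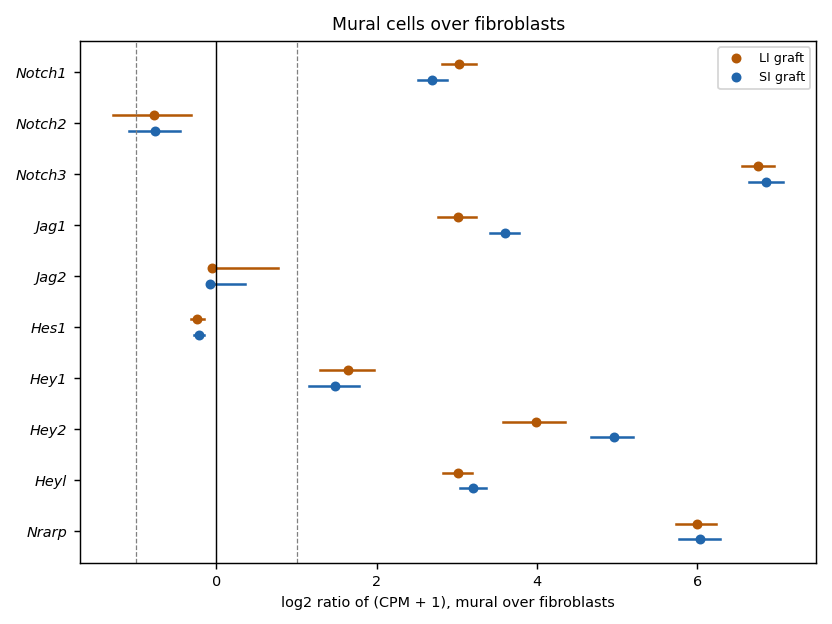
Log2 ratio of CPM + 1 in mural cells over fibroblasts for each gene, in the LI graft (orange) and the SI graft (blue), with 95% counting intervals; dashed lines mark 2-fold. Notch3 (6.75 and 6.86) and Nrarp (6.00 and 6.03) lie farthest to the right and Notch2 lies left of 0 in both grafts.

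Within the mural cells, the ligand Jag1 and the targets Nrarp and Hey2 were higher in vascular muscle-like cells than in pericytes. Jag1 was at 61.6 (47.7 to 78.4) CPM in LI pericytes and 116 (94.0 to 141) CPM in LI vascular muscle-like cells, and at 62.1 (50.5 to 75.4) and 148 (135 to 161) CPM in SI. Nrarp was at 66.3 (51.8 to 83.7) and 160.0 (134 to 189) CPM in LI and 87.2 (73.5 to 103) and 181 (167 to 196) CPM in SI. The intervals of the 2 classes did not overlap for either gene in either graft. Hey2 was at 19.6 and 44.4 CPM in LI and 28.9 and 54.2 CPM in SI. As log2 ratios of vascular muscle-like cells over pericytes these were 0.90 (0.44 to 1.36) and 1.24 (0.93 to 1.56) for Jag1, 1.26 (0.84 to 1.69) and 1.04 (0.78 to 1.32) for Nrarp, and 1.14 (0.36 to 1.94) and 0.89 (0.43 to 1.36) for Hey2. Cells with exactly 1 Myh11 UMI did not always lie between: Jag1 was 66.4 and 90.5 CPM in them, Nrarp 116 and 142 CPM, and Hey2 9.84 and 36.7 CPM, the LI value of Hey2 resting on 4 UMIs.

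The receptor Notch3 differed little between the mural classes, at 372 and 475 CPM in LI pericytes and vascular muscle-like cells and 437 and 485 CPM in SI, log2 ratios of 0.35 (0.15 to 0.56) and 0.15 (0.02 to 0.28). Heyl was level, at 144 and 148 CPM in LI and 124 and 119 CPM in SI, log2 ratios of 0.04 (-0.30 to 0.39) and -0.06 (-0.31 to 0.19). Notch1 was lower in SI vascular muscle-like cells than in SI pericytes (67.6 and 111 CPM, log2 ratio -0.71, interval -0.996 to -0.42), and in LI its interval included 0 (87.6 and 96.2 CPM, log2 ratio -0.13, interval -0.58 to 0.30). Hey1 was lower in LI vascular muscle-like cells, at -1.01 (-1.87 to -0.21), and in SI its interval included 0, at -0.10 (-0.71 to 0.53). On this scale 2 members passed 2-fold upward in LI (Hey2 and Nrarp) and 2 in SI (Jag1 and Nrarp), beside 5.14% and 3.78% of all genes, and Hey1 passed it downward in LI, as 4.95% of all genes did. Pericytes were the shallower class, with medians of 3863 and 3589.5 UMIs a cell against 5183 and 5385, and since the split used UMIs of Myh11, shallow muscle cells could fall among the pericytes. The part of depth in these ratios was not tested.

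**Figure D3:**
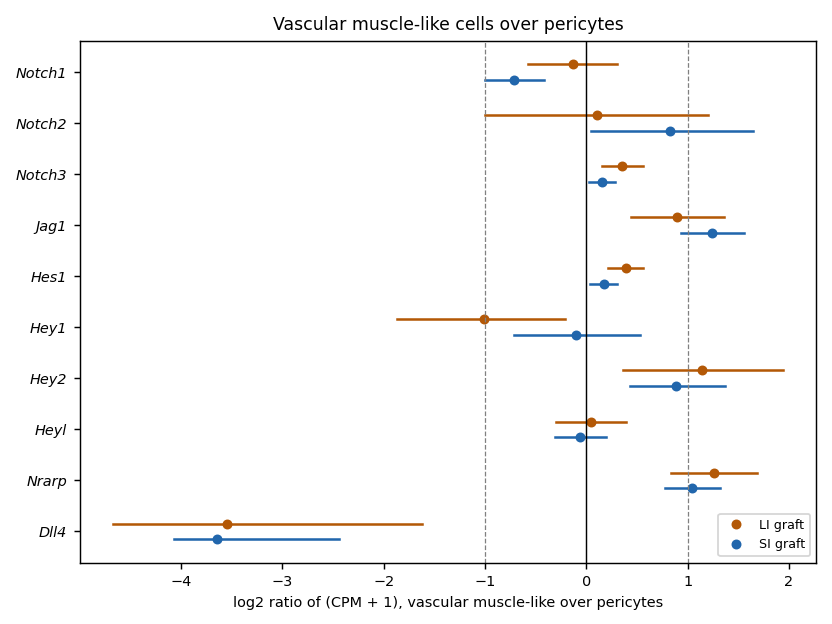
Log2 ratio of CPM + 1 in vascular muscle-like cells over pericytes for 9 of the 10 genes (Jag2 had no UMI in either) and for Dll4, with 95% counting intervals, LI graft in orange and SI graft in blue; dashed lines mark 2-fold. Jag1, Hey2 and Nrarp lie to the right in both grafts, Heyl sits at 0, and Dll4 lies far to the left.

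Dll4, a ligand of endothelial tip cells that was on the list of other pathway genes, was higher in pericytes than in vascular muscle-like cells. It had 26 UMIs in LI pericytes (24.3 CPM, interval 15.9 to 35.6) and 1 in LI vascular muscle-like cells, and 25 UMIs in SI pericytes (15.4 CPM, interval 9.94 to 22.7) and 1 in SI vascular muscle-like cells. The log2 ratio of vascular muscle-like cells over pericytes was -3.54 (-4.67 to -1.62) in LI and -3.65 (-4.07 to -2.44) in SI. This ratio leaves out the cells with exactly 1 Myh11 UMI, and Dll4 was not confined to pericytes. Of the mural cells with a Dll4 UMI, 24 of 37 in LI and 23 of 27 in SI were pericytes. Since vascular muscle-like cells held 1 Dll4 UMI in each graft, the others were nearly all cells with exactly 1 Myh11 UMI. The 8 endothelial markers were higher in pericytes too, with sums of 68.2 CPM against 23.4 CPM in LI vascular muscle-like cells and 50.4 against 38.1 CPM in SI, and their part in the Dll4 levels was not tested. The 37 LI mural cells with a Dll4 UMI held these markers at a sum of 64.5 CPM (30.9 to 119) and the other LI mural cells at 52.8 CPM (43.6 to 63.4). In SI the 27 Dll4+ mural cells were at 57.1 CPM (23.0 to 118) and the others at 42.1 CPM (36.9 to 47.8). The intervals overlapped in both grafts.

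Receptor and target UMIs were each common in single mural cells at the depth of 2000 UMIs. Notch3 or Notch1 was seen in 63.5% (59.1% to 67.7%) of LI and 66.6% (63.5% to 69.6%) of SI mural cells, and at least 1 of Hey1, Hey2, Heyl and Nrarp in 45.4% (41.0% to 49.9%) and 45.2% (42.0% to 48.4%). In fibroblasts these targets were seen in 5.02% (4.54% to 5.54%) and 3.56% (3.08% to 4.09%). Notch3 and its ligand Jag1 were both seen in 7.10% (4.99% to 9.74%) of LI and 14.9% (12.7% to 17.3%) of SI mural cells, while Notch3 without Jag1 was seen in 48.7% (44.2% to 53.2%) and 45.4% (42.2% to 48.6%). The shares with a target UMI had overlapping intervals in mural cells with and without a Notch3 UMI: 48.4% (42.3% to 54.4%) and 41.7% (35.1% to 48.6%) in LI, and 46.1% (42.0% to 50.3%) and 43.8% (38.7% to 49.0%) in SI. At this depth a cell without a UMI is not a cell without the transcript, and cells of 1 library are not replicates.

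Among the fibroblasts, the targets Heyl, Hey1 and Hes1 were all lower in PDGFRAhi FB than in CD81 FB. Heyl was at 22.1 and 17.5 CPM in LI and SI CD81 FB and at 22.6 and 17.04 CPM in other FB, and it was lower in Fgfr2 FB (9.81 and 4.17) and PDGFRAhi FB (6.18 and 2.88). PDGFRAhi FB over CD81 FB gave -1.69 (-2.32 to -1.09) in LI and -2.25 (-3.07 to -1.44) in SI for Heyl. For Hey1 the same ratio was -0.80 (-1.46 to -0.18) and -1.80 (-2.66 to -0.86), and for Hes1 it was -0.60 (-0.68 to -0.51) and -1.25 (-1.36 to -1.14). All 6 intervals lay below 0. The summed mural markers were also lower in PDGFRAhi FB, at 149 CPM against 273 CPM in CD81 FB in LI and 335 against 643 CPM in SI, and their part in these ratios was not tested. The PDGFRAhi FB lie under the epithelium in the intestine and CD81 FB deeper. Hey2 and Nrarp stayed at or under 2.01 CPM in every fibroblast class of both grafts.

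Visceral SMC, which are contractile like the vascular muscle-like cells, were gated to hold at most 2 of the 9 mural markers, so cells with more of them were left out. The ungated cells held the visceral SMC markers at sums of 2569 and 7119.7 CPM in LI and SI, beside 5575 and 6881 CPM in the gated visceral SMC, and contractile cells with mural transcripts may be among them. The gated visceral SMC also held the fibroblast markers at sums of 14933 and 18365 CPM, against 2378 and 2891 CPM in mural cells, and the part of this in the ratios was not tested. In the gated cells Notch3 was 3.68 (1.48 to 7.58) CPM in LI and 5.56 (2.96 to 9.52) CPM in SI visceral SMC, a log2 ratio to mural cells of -6.47 (-7.39 to -5.58) and -6.17 (-6.90 to -5.49). For Heyl that ratio was -4.27 (-5.04 to -3.55) and -4.62 (-5.44 to -3.83), and for Nrarp -5.42 (-6.39 to -4.28) and -6.03 (-6.89 to -4.97). The ICC of the LI graft held Notch3 at 4.15 (1.67 to 8.54) CPM. The 70 ICC of the SI graft held it at 46.4 (27.5 to 73.3) CPM from 18 UMIs in 7 cells, with Nrarp at 20.6 (8.90 to 40.6) CPM. The mural markers summed to 1023 CPM in LI and 1101 CPM in SI ICC, and their part in the SI value was not tested. Between the grafts, LI ICC were at least 2-fold higher in 1 member, Notch2, and lower in 5 (Notch1, Notch3, Jag1, Hey2 and Nrarp), where 10.2% and 7.28% of all genes were. The intervals of Notch3 (-3.20, interval -4.37 to -2.02), Nrarp (-2.68, interval -4.08 to -1.07) and Jag1 (-1.25, interval -2.28 to -0.15) excluded 0, as did that of Notch1 (-1.81, interval -3.38 to -0.0022), which rested on 5 UMIs in each graft. Hey2 had 0 UMIs in LI and 4 in SI ICC, with the interval of its ratio from -3.50 to -1.07. The interval of Notch2 included 0 (1.26, interval -0.12 to 2.89, from 44 LI and 4 SI UMIs).

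The grafts of large and small intestine were compared to see whether the 2 organs differ in their Notch genes. In neither the fibroblasts as a whole nor the mural cells was any of the members 2-fold different (0 of 5 and 0 of 9 that reached 10 CPM), where 1.94% and 1.59% of all genes were higher or lower in LI fibroblasts and 1.67% and 2.13% in LI mural cells. Smaller differences exceeded the counting error for all 5 targets in fibroblasts or mural cells, and Hes1, Hey1 and Heyl were higher in LI in both. In fibroblasts, LI over SI was 0.38 (0.35 to 0.40) for Hes1, 0.62 (0.43 to 0.82) for Hey1 and 0.53 (0.37 to 0.68) for Heyl on the log2 scale, and in mural cells 0.35 (0.26 to 0.45), 0.79 (0.37 to 1.2005) and 0.34 (0.15 to 0.52). Nrarp was lower in LI fibroblasts, at -0.41 (-0.71 to -0.09), and the interval of Hey2 included 0 there, at 0.28 (-0.04 to 0.56). The intervals of the receptors in fibroblasts as a whole included 0, with Notch1 at -0.05 (-0.21 to 0.12), Notch2 at 0.05 (-0.07 to 0.17) and Notch3 at -0.09 (-0.37 to 0.18). By class, Notch2 was higher in LI other FB (0.44, interval 0.22 to 0.67) and Fgfr2 FB (0.35, interval 0.03 to 0.68). It was lower in LI adventitial-like FB (-0.41, interval -0.67 to -0.16), and its intervals in PDGFRAhi FB and CD81 FB included 0. In mural cells Notch1 was higher in LI, at 0.29 (0.06 to 0.51), Notch3 was lower, at -0.20 (-0.30 to -0.09), and Notch2 was at 0.03 (-0.55 to 0.60). Also in mural cells, Jag1 (-0.48, interval -0.72 to -0.25), Hey2 (-0.70, interval -1.11 to -0.31) and Nrarp (-0.44, interval -0.65 to -0.24) were lower in LI. By mural class the ratios were, for Nrarp, -0.39 (-0.82 to 0.03) in pericytes and -0.18 (-0.45 to 0.09) in vascular muscle-like cells, for Hey2 -0.54 (-1.31 to 0.20) and -0.28 (-0.81 to 0.22), and for Jag1 -0.01 (-0.47 to 0.45) and -0.35 (-0.67 to -0.04). For Notch1 the ratio was -0.21 (-0.57 to 0.15) in pericytes and 0.37 (-0.02 to 0.75) in vascular muscle-like cells. For Hey1 it was 1.03 (0.36 to 1.70) in pericytes and 0.11 (-0.71 to 0.87) in vascular muscle-like cells. In the cells with exactly 1 Myh11 UMI, Hey2 was at 9.84 CPM in LI and 36.7 CPM in SI, and Notch1 was at 143 and 86.8 CPM.

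By fibroblast class, Hes1 was higher in LI for PDGFRAhi FB (462 against 259 CPM, log2 ratio 0.83, interval 0.70 to 0.96), Fgfr2 FB (702 against 382 CPM, log2 ratio 0.88, interval 0.81 to 0.94) and other FB (694 against 432 CPM, log2 ratio 0.68, interval 0.63 to 0.73). It was higher by less for CD81 FB (699 against 617 CPM, log2 ratio 0.18, interval 0.13 to 0.23) and lower in LI for adventitial-like FB (527 against 630.2 CPM, log2 ratio -0.26, interval -0.32 to -0.20). Heyl passed 2-fold in adventitial-like FB, at 16.96 CPM in LI and 6.32 CPM in SI (log2 ratio 1.29, interval 0.84 to 1.76), where 3.19% of all genes were as much higher. Hey1 passed it in other FB (11.8 and 5.36 CPM, log2 ratio 1.003, interval 0.62 to 1.39, beside 2.04% of all genes) and in pericytes (41.1 and 19.7 CPM, log2 ratio 1.03, interval 0.36 to 1.70, beside 3.35% of all genes). Hey1 in PDGFRAhi FB (1.36, interval 0.25 to 2.35) and Heyl in Fgfr2 FB (1.06, interval 0.55 to 1.58) were also above 1 on the log2 scale, but neither gene reached 10 CPM there. In visceral SMC Jag1 was 2-fold lower in LI (log2 ratio -1.02, interval -1.73 to -0.33, beside 3.32% of all genes). Female cells, those with Xist and no Y-linked gene, made up 81.7% of LI and 58.7% of SI fibroblasts and 83.0% of LI and 43.1% of SI mural cells. Among female cells alone the fibroblast ratio of LI over SI was 0.49 for Hes1, 0.92 for Hey1 and 0.12 for Heyl, the mural ratio was 0.22, 0.94 and 0.26, and again no member was 2-fold different in either. With cells holding any endothelial or immune marker UMI left out, Hey2 was at least 2-fold lower in LI mural cells. Graft type, library, kit and the animals used cannot be told apart with 1 library each.

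**Figure D4:**
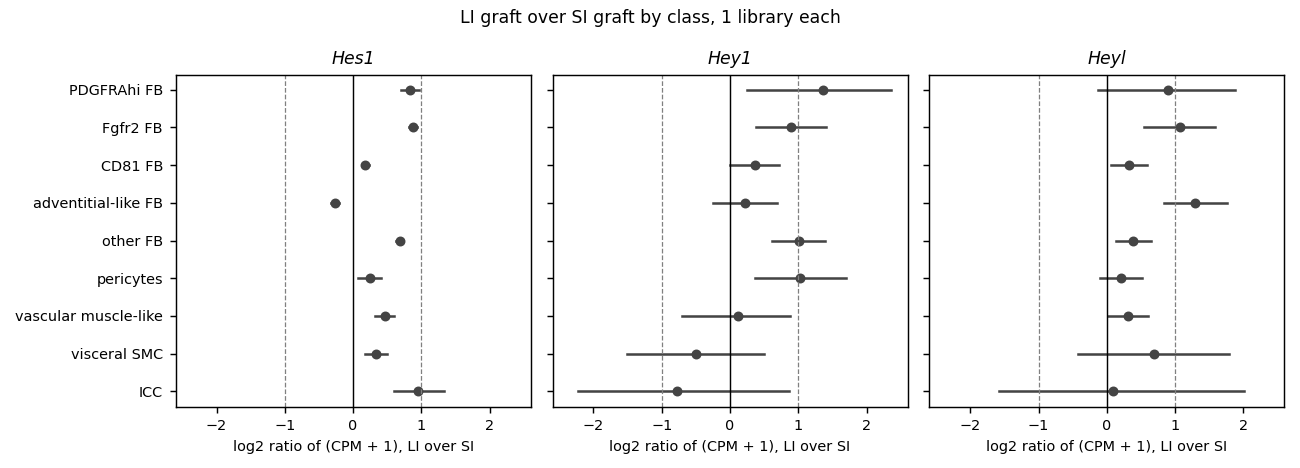
Log2 ratio of CPM + 1 in the LI graft over the SI graft for Hes1, Hey1 and Heyl in the 9 classes, with 95% counting intervals; dashed lines mark 2-fold. Hes1 is right of 0 in 8 classes and left of it in adventitial-like FB, where Heyl reaches 1.29.

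The other 41 pathway genes were listed by their role. Of the 31 that reached 10 CPM in LI, 6 were at least 2-fold higher in mural cells than in fibroblasts (Dll4, Maml3, Neurl1b, Dtx3, Ccnd1 and Cdkn1a) and 2 were as much lower (Dlk1 and Numbl). Of the 29 in SI, 3 were higher (Neurl1b, Ccnd1 and Cdkn1a) and 3 lower (Dlk1, Pofut1 and Adam17). The shares over all genes were 10.4% higher and 10.6% lower in LI and 10.1% and 10.6% in SI, so the SI counts of the list were near the background. The median log2 ratio of the list was 0.04 in LI and -0.06 in SI. Of the 10 genes listed for cleavage of the receptor, 9 reached 10 CPM, and none of these was 2-fold higher in mural cells. Adam10, whose product makes the cut that follows ligand binding, gave 0.62 (0.34 to 0.88) in LI and 0.23 (0.05 to 0.41) in SI. The γ-secretase subunit gene Psenen gave -0.04 (-0.22 to 0.13) and -0.06 (-0.18 to 0.06). Adam17, a second protease, was lower in mural cells, at -0.53 (-0.92 to -0.16) and -1.11 (-1.40 to -0.83). Pofut1, whose product adds fucose to the receptor, was lower too, at -0.70 (-1.15 to -0.28) and -1.10 (-1.42 to -0.80). Rbpj, the DNA-binding partner, was at 50.6 and 57.3 CPM in LI and SI mural cells and at 67.0 and 70.6 CPM in fibroblasts. Maml3, a coactivator, was higher in mural cells, at 92.1 and 64.9 CPM against 41.4 and 32.9 CPM, ratios of 1.14 (0.93 to 1.34) and 0.96 (0.79 to 1.13).

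The 3 listed genes past 2-fold upward in both grafts were Ccnd1, Cdkn1a and Neurl1b, where 10.4% of all genes in LI and 10.1% in SI passed that mark. The cyclin gene Ccnd1 was at 156 and 225 CPM in LI and SI mural cells, ratios of 2.91 (2.73 to 3.08) and 2.75 (2.64 to 2.87). The cell cycle inhibitor gene Cdkn1a gave 1.44 (1.35 to 1.53) and 1.42 (1.36 to 1.48), and both genes respond to many signals besides Notch. Neurl1b, a ligase for ligand uptake, gave 1.47 (0.87 to 2.03) and 2.61 (2.25 to 2.96). Dtx3, a Deltex family gene, was at 1.27 (1.12 to 1.42) in LI and 0.95 (0.83 to 1.07) in SI, and Numbl, related to the Notch inhibitor Numb, at -1.17 (-1.56 to -0.80) and -0.80 (-1.03 to -0.57). Hes5, Hes7 and Dtx1 did not reach 10 CPM in either group. The ligand gene Dll1 was higher in PDGFRAhi FB and Fgfr2 FB than in CD81 FB and mural cells. It was at 17.6 (13.2 to 22.9) and 11.1 (7.57 to 15.8) CPM in LI and SI PDGFRAhi FB and 14.1 (11.9 to 16.6) and 18.4 (15.3 to 21.9) CPM in Fgfr2 FB, against 2.23 and 6.31 CPM in CD81 FB and 2.14 and 1.22 CPM in mural cells. Dlk1, a ligand-like gene without the domain that activates receptors, was at 84.1 and 80.5 CPM in CD81 FB and at 7.16 and 0 CPM in PDGFRAhi FB, the latter from 0 UMIs in SI.

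The order of levels over the 9 classes put 6 of the 10 genes highest in the same class in both grafts: Notch3, Jag1, Hey2 and Nrarp in vascular muscle-like cells and Notch1 and Hey1 in pericytes. The intervals of the first and second class overlapped for Notch1 and Hey1 in LI and for Notch3 and Hey1 in SI. The mural cells with exactly 1 Myh11 UMI were not in this order. They were above the named class for Notch1 in LI (143 against 96.2 CPM) and Notch3 in SI (492 against 485 CPM). For Hey1 they were above it in both grafts (44.3 against 41.1 and 22.0 against 19.7 CPM), and all these intervals overlapped. Heyl changed its first class between grafts within overlapping intervals, and Notch2 and Hes1 had different fibroblast classes first. Over the 18 combinations of class and library, the genes with the pattern most like each member, after markers and members were left out, were found for 9 members. Jag2 was too low for this. For Notch3 they were Apold1 (r = 0.99), Ptp4a3 (r = 0.99), Sema5b (r = 0.99), for Nrarp Map7d2 (r = 0.99), Atp1b2 (r = 0.99), Angpt2 (r = 0.99), for Hey2 Itga7 (r = 0.97), Angpt2 (r = 0.96), Gm13861 (r = 0.96), for Notch1 Pdgfrb (r = 0.98), Mtus1 (r = 0.97), Mfge8 (r = 0.96) and for Jag1 Tspan17 (r = 0.96), Uba2 (r = 0.95), Ncapd3 (r = 0.95). For Heyl they were Rdh5 (r = 0.93), Ntm (r = 0.93), Ifngr2 (r = 0.92), for Hey1 Adamts1 (r = 0.90), Meox2 (r = 0.89), Ptgir (r = 0.88), for Hes1 Ndel1 (r = 0.91), Sqstm1 (r = 0.88), Zfp655 (r = 0.87) and for Notch2 Cdon (r = 0.87), Lefty1 (r = 0.86), Gata6 (r = 0.85). Angpt2, which encodes a vessel growth factor, was near both Nrarp and Hey2, and Pdgfrb, the mural and mesenchymal receptor gene for PDGF-B, was nearest to Notch1. These are Pearson correlations of log2(CPM + 1) across classes that share a library and its depth.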

How the data were processed

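Stromal cells of 1 LI and 1 SI graft were profiled by droplet single-cell RNA-seq. The authors made the deposited UMI counts per gene and barcode with Cell Ranger 3.1.0 (mm10), and Seurat 3 is also named in the submitters' processing notes; the kit of each library is not given in the sources used here. The 28692 features were used as deposited, 11568 LI and 9631 SI barcodes with 63348069 and 54918006 UMIs. Cells were kept at 500 or more genes and at most 10% mitochondrial UMIs, and were gated on marker lists by the number of markers with a UMI. The minimum was 4 of 9 for mural cells, with at most 5 fibroblast markers, 4 of 8 for visceral SMC, with at least 2 Actg2 UMIs and at most 2 mural markers, 3 of 6 for ICC and 5 of 8 for fibroblasts. Scrublet in scanpy 1.11.5 marked 0 LI and 1 SI barcodes, which means it did not work, so no doublets were removed. Pooled CPM carry exact Poisson 95% intervals, shares Clopper-Pearson intervals after thinning to 2000 UMIs, which leaves out shallower cells, and ratios of CPM + 1 the exact binomial interval of the split (scipy 1.17.1, numpy 2.4.6, pandas 2.3.3, python 3.11.15). A gene was counted past 2-fold only if it reached 10 CPM on 1 side. Intervals cover counting error only. The ratio script was tested on simulated data.

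All members were named, other pathway genes came from a list set by role, and the 3 genes most like each member were those of at least 20 CPM in 1 class with the highest Pearson r. The members, lists and gates were chosen with earlier results of these data known. Alternatives were stricter and looser cell filters, removal of the barcodes with the highest Scrublet scores, clusters in place of gates, a stricter gate, no cells with an endothelial or immune UMI, female cells only, means over cells, TMM scaling (edgeR 4.0.16, R 4.3.3), a pseudocount of 5 CPM, no minimum level and thinning to 1000 UMIs. No test between samples was made, since each group is 1 library.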

Additional observations from a re-analysis of the deposited data

How the results depend on the processing

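The 7 members higher in mural cells numbered 7 in both grafts under every alternative run, and of the single ratios past 2-fold of the 6 members other than Notch3 (12 results, 120 values), all 120 kept their direction and stayed past 2-fold. The log2 ratio of Notch3 in mural cells over fibroblasts moved from 6.75 in LI and 6.86 in SI to 6.99 and 7.12 with the barcodes of the highest Scrublet scores removed, to 5.94 and 5.54 with clusters in place of gates, and to 5.74 and 5.88 with a pseudocount of 5 CPM; with a stricter gate it was 6.64 in SI. Nrarp moved from 6.00 and 6.03 to 4.32 and 4.61 with that pseudocount and to 5.52 and 4.98 with clusters, and Hey2 from 3.99 and 4.97 to 2.47 and 3.18 and to 3.85 and 4.57. The cause was not tested for the gates, clusters and removed barcodes, and the pseudocount lowers any ratio against a low level by construction. With cells holding any endothelial or immune marker UMI left out, the count of members 2-fold different between grafts in mural cells went from 0 to 1, Hey2, which was lower in LI. Thinning to 1000 UMIs lowered the share of mural cells with a Notch3 UMI from 55.8% to 32.2% in LI and from 60.3% to 38.6% in SI, as fewer UMIs are drawn. TMM scaling shifted the Hes1 ratio of mural cells over fibroblasts to -0.43 in LI and -0.36 in SI. The number of members highest in the same class in both grafts was 6, and 8 with clusters and 7 with TMM. No paired analysis was possible because each graft type has 1 library. Depth limits the rare genes: in small classes a few UMIs set Hey2, Nrarp and Jag2.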
